A study of Mus musculus with 8 samples.

Results

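The genes described here encode the guidance ligands of the semaphorin, Slit and netrin families and their plexin, neuropilin, Robo and Unc5 receptors. They were matched by gene symbol, as the rows of the count table named Sema3 to Sema7, Slit, Ntn, Plxn, Nrp, Robo or Unc5. They numbered 46 of 43346 listed genes, 27 ligands and 19 receptors, and were chosen with earlier results of these data known. The RNA was that of MC3T3, a line of mouse pre-osteoblasts able to deposit and mineralize a bone-like matrix. All 8 samples were kept for 7 days in mineralizing medium, which holds ascorbic acid at 100 ug/mL and beta-glycerophosphate at 10 mM. In the LLC_CM group, 4 samples, the medium held 25% of filtered serum-free medium from LLC1, a Lewis lung carcinoma line of mouse origin. The other 4 samples carry the label NCM, which is not spelled out and is taken here, by elimination, as the vehicle group. The comparison asks how soluble tumour cell products alter RNA levels in mineralizing osteoblasts. The labels do not say whether the 4 samples of a group were separate cultures, and the p-values therefore reflect the spread of these samples only, which may be technical. In bulk RNA, fewer expressing cells and less RNA per cell cannot be told apart.

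Guidance proteins were first known from growing axons and are used in bone by osteoblasts, osteoclasts, vessels and nerves. Secreted class 3 semaphorins bind neuropilins, which pass the signal on through A-type plexins, while Sema3e can bind Plxnd1 directly. Membrane-bound class 4 to 7 semaphorins bind plexins without a neuropilin: Sema4d binds Plxnb1, Sema4c binds Plxnb2, class 6 members bind A-type plexins and Sema7a binds Plxnc1. Slits are large secreted ligands of Robo receptors. Netrins signal through Dcc, neogenin and the Unc5 receptors. In bone, Sema3a from osteoblasts restrains osteoclasts and favours bone formation, Sema4d from osteoclasts restrains osteoblasts, and Slit3 acts on osteoblasts and on bone vessels.

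Library totals ran from 27264212 to 35573953 assigned reads, and guidance genes took 0.162% to 0.185% of the reads in LLC_CM and 0.223% to 0.232% in NCM. A count of 0 allowed up to 0.111 CPM (depth-scaled counts, with TMM factors) in the shallowest library, at 3 counts, which covers counting error only. All 8 osteoblast markers on a list of 8 were detected, with a summed level of 20846 to 26158 CPM in LLC_CM and 29355 to 38489 CPM in NCM, and all 8 were lower in LLC_CM. Those sums were nearly all Col1a1 and Ibsp, which were 1.41-fold and 1.36-fold lower. Each of the other osteoblast markers fell by a larger fold, 1.98-fold for Runx2 and more for the rest. Markers of neurons and glia summed to 17.4 to 21.4 CPM in LLC_CM and 57.6 to 77.1 CPM in NCM, with Rbfox3, Snap25, Sox10 and Stmn2 at 0 counts in every library and with Tubb3 and Mbp lower in LLC_CM. Most of that difference was Tubb3, at 0.892 CPM in LLC_CM and 50.8 CPM in NCM. Endothelial markers summed to at most 2.73 CPM in any library, with Cdh5 and Kdr at 0, and lymphocyte markers to at most 0.158 CPM. Of 7 epithelial and carcinoma markers Muc1 alone was tested and was higher in LLC_CM, with sums of at most 2.24 CPM and with Epcam, Krt8, Krt18 and Sftpc at 0. Muc1 was at 1.11 to 2.13 CPM in LLC_CM and at 0.546, 0.531, 0.141 and 0.315 CPM in NCM. Against a low-count filter of 0.330 CPM, Muc1 was tested only through LLC_CM, where it is high. Skeletal muscle markers summed to 0.966 to 2.10 CPM in LLC_CM and 0.353 to 0.853 CPM in NCM. Of the 2 tested, of 5, Tnnt3 was higher in LLC_CM and Acta1 was not called. Tnnt3 was at 0.341, 0.213, 0.0706 and 0.347 CPM in NCM, so it too was tested only through LLC_CM. Both tested adipocyte markers, of 5, were higher in LLC_CM, with sums of 17.5 to 24.7 CPM against 8.12 to 10.2 CPM in NCM. Of 9 macrophage and osteoclast markers 3 were higher in LLC_CM and none was lower, with sums of 469 to 591 CPM in LLC_CM and 308 to 355 CPM in NCM that were nearly all Ctsk, which osteoblasts also express, while Dcstamp was at 0. Fcer1g, among the 3 higher, was at 0.580, 0.496, 0.318 and 0.315 CPM in NCM and was likewise tested only through LLC_CM. Chondrocyte markers summed to 66.6 to 85.5 CPM in LLC_CM and 169 to 194 CPM in NCM, with Col10a1 and Matn1 at 0. Of the 3 tested, Col2a1 and Hapln1 were lower in LLC_CM, whereas Sox9 was higher, at 34.6 CPM against 20.4 CPM in NCM (log2 0.76 ± 0.07, edgeR, adjusted p = 7.2e-07). The part of these marker differences in the results on guidance genes was not tested.

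More guidance ligands fell than rose in LLC_CM, and the largest falls among them were in Sema6a, Sema3b, Sema3c and Sema4d. Of the 27 ligands, 19 passed the filter on low counts, 8 fell, 3 rose and 8 did not pass the threshold, a Benjamini-Hochberg adjusted p of 0.05 by the quasi-likelihood test of edgeR. Over all 14991 genes tested 36.9% were called, 18.1% lower and 18.8% higher. Among ligands with a mean of at least 1 CPM over all libraries, a level that takes no account of group, 8 of 14 fell and 2 rose, where 38.8% of all such genes were called in either direction. The median log2 fold change (LLC_CM minus NCM) of the 19 tested ligands was -0.42, beside 0.01 over all genes tested. That median depended on the filter: with no filter on low counts it was 0.0012, and 6 ligands rose and 8 fell. It was -0.15 in the odd-numbered libraries by themselves and -0.28 without NCM replicate 4. Slit1 passed the filter only through LLC_CM, so its presence among the tested genes required a difference. Sema3f reached the filter's 0.330 CPM in 4 LLC_CM and 2 NCM libraries, and Ntn5 in 1 and 4. Each of these passed only through the group where it was higher, and neither was called.

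**Figure D1:**
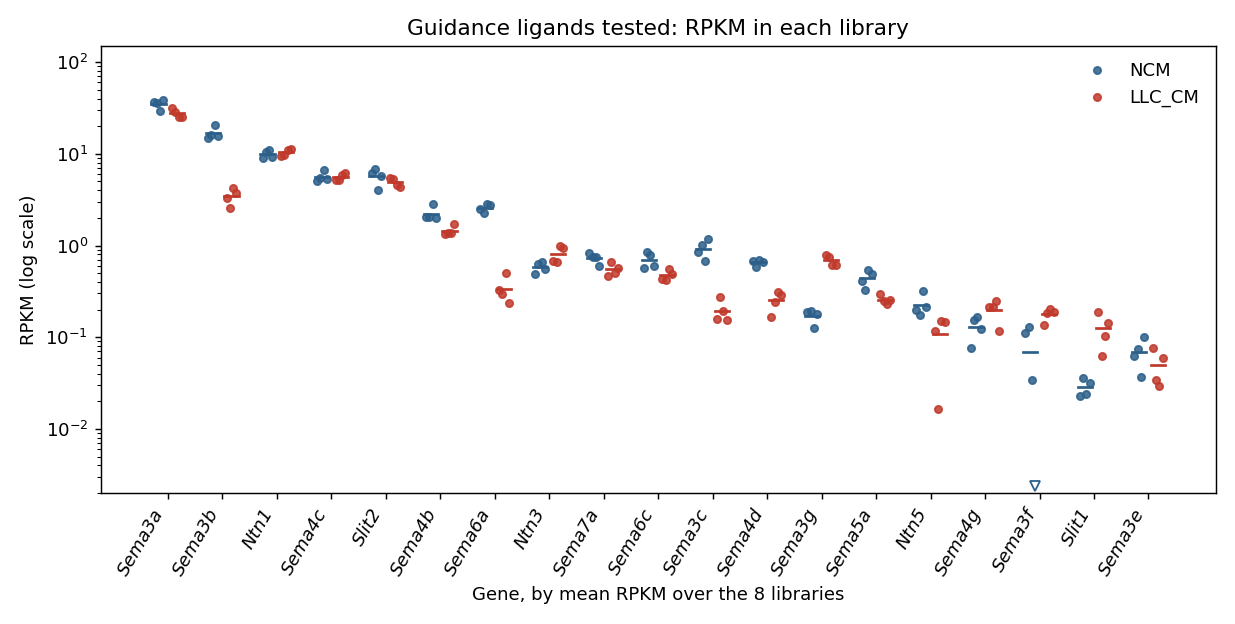
RPKM (CPM per kilobase of deposited gene length, log axis) of the 19 tested ligands, with a point for each library, a line for the mean of the 4 libraries of a group, NCM in blue, LLC_CM in red, and an open triangle at the bottom for a count of 0. Sema3a is highest in both groups, and Sema3b and Sema6a show wide gaps between the groups. Sema3b is second in NCM (16.8 RPKM) and below Ntn1, Sema4c and Slit2 in LLC_CM (3.46 RPKM). These orders hold for the deposited lengths, which for Sema3a and Slit2 are 46.7% and 59.3% of the exon lengths in GENCODE M21.

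The class 3 semaphorins were led by Sema3a, whose RNA was the most abundant of all ligands per kilobase, at 27.5 RPKM in LLC_CM and 35.1 RPKM in NCM. Its mean over all libraries was 31.3 RPKM with the deposited length and 14.6 RPKM with the longer exon length in GENCODE M21, the highest of the ligands either way. Sema3a (chromosome 5, 13396784 to 13602565 in mm10) stood at 204, 183, 161 and 164 CPM in LLC_CM replicates 1 to 4 and at 239, 234, 188 and 248 CPM in NCM replicates 1 to 4. The groups overlapped, since LLC_CM replicate 1 lay above NCM replicate 3. Sema3a had a log2 fold change of -0.35 ± 0.09 (SE, edgeR, adjusted p = 0.0075), with means of 178 ± 19.7 CPM in LLC_CM and 227 ± 26.9 CPM in NCM (SD, n = 4). The call was lost with the odd-numbered libraries alone (adjusted p = 0.29).

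Sema3b, a secreted semaphorin with a tumour suppressor role in lung, showed a much larger difference. Its levels were 15.7, 12.3, 20.05 and 18.02 CPM in LLC_CM and 71.4, 76.9, 98.1 and 75.5 CPM in NCM. Every NCM library lay far above every LLC_CM library. Sema3b (chromosome 9, 107597674 to 107609229) was 4.85-fold lower in LLC_CM (log2 -2.28 ± 0.14, SE, edgeR, adjusted p = 6.2e-08). Sema3c, a ligand of both neuropilins that guides heart and vessel cells, was at 1.13, 1.96, 1.37 and 1.11 CPM in LLC_CM and at 6.04, 7.19, 4.803 and 8.42 CPM in NCM. It was 4.79-fold lower, with a log2 fold change of -2.26 ± 0.22 (edgeR, adjusted p = 7.9e-07), and the groups did not overlap.

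Sema3g, a neuropilin 2 ligand made by endothelial and fat cells, moved the other way. It stood at 3.57, 3.44, 2.80 and 2.78 CPM in LLC_CM and at 0.853, 0.886, 0.565 and 0.820 CPM in NCM. All LLC_CM libraries were above all NCM libraries, and Sema3g rose 4.002-fold (log2 2.001 ± 0.21, edgeR, adjusted p = 1.7e-06). Of 5 adipocyte markers, the 2 tested, Cebpa and Fabp4, were higher in LLC_CM, and of 7 endothelial markers the 1 tested, Vwf, was lower. Their part in the level of Sema3g was not tested. Sema3f, also a neuropilin 2 ligand, was at 0.708 to 1.06 CPM in LLC_CM and at 0.580, 0.673, 0.177 and 0 CPM in NCM. Its log2 fold change of 1.40 ± 0.54 missed the threshold in edgeR (adjusted p = 0.061), passed with DESeq2 (0.045) and limma-voom (0.038) and passed without NCM replicate 2 (0.030), with values up to 0.21 over its alternatives.

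Sema3e and Sema3d were near the limit of detection. Sema3e, the ligand of Plxnd1, was at 0.580, 0.259, 0.224 and 0.448 CPM in LLC_CM and at 0.478, 0.567, 0.283 and 0.757 CPM in NCM. These ranges overlapped, and its log2 fold change of -0.47 ± 0.39 was not called (edgeR, adjusted p = 0.38). Sema3d had 6 reads over LLC_CM and 4 over NCM and was not tested.

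Of 13 membrane-bound semaphorins listed, 8 were tested, and 5 of these fell, none rose and 3 did not pass the threshold, beside 18.1% lower and 18.8% higher over all genes tested. Sema6b and Sema6d, which did not pass the filter, had more reads in LLC_CM than in NCM. Sema6a, a transmembrane ligand of A-type plexins, had the lowest log2 fold change of all guidance genes. Its level was 2.90, 2.59, 4.37 and 2.06 CPM in LLC_CM and 21.7, 20.02, 24.6 and 24.3 CPM in NCM. The groups were far apart, and Sema6a was 7.54-fold lower in LLC_CM (log2 -2.91 ± 0.17, edgeR, adjusted p = 8.6e-09). Sema4d, the ligand by which osteoclasts restrain osteoblasts, was at 1.06, 1.55, 1.99 and 1.88 CPM in LLC_CM and at 4.33, 3.76, 4.52 and 4.29 CPM in NCM. The groups did not overlap, and Sema4d was 2.59-fold lower (log2 -1.37 ± 0.19, edgeR, adjusted p = 3.6e-05).

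Smaller falls were measured for Sema5a, Sema4b and Sema6c. Sema5a, whose extracellular part carries thrombospondin repeats, had a log2 fold change of -0.80 ± 0.17 and Sema4b of -0.62 ± 0.13 (edgeR, adjusted p = 0.0017 for each). Both calls were lost with the even-numbered libraries alone (adjusted p = 0.062 and 0.14). Sema6c had a log2 fold change of -0.56 ± 0.17 (edgeR, adjusted p = 0.019), and the call was lost when NCM replicate 2 (0.074) or 3 (0.053) or LLC_CM replicate 1 (0.054) was left out, within a range of 0.0087 to 0.26 over its alternatives. Sema4c, the membrane-bound semaphorin with the highest mean RPKM, at 25.9 ± 2.43 CPM in LLC_CM and 25.8 ± 3.32 CPM in NCM (SD, n = 4), had a log2 fold change of 0.01 ± 0.10 (edgeR, adjusted p = 0.97). Sema7a, a lipid-anchored ligand of Plxnc1 and integrin beta 1, and Sema4g had log2 fold changes of -0.42 ± 0.19 and 0.60 ± 0.31 and were not called (adjusted p = 0.092 and 0.15).

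A pair of class 6 semaphorins had more reads in LLC_CM than in NCM, all at low counts. Sema6b, with 59 LLC_CM reads (15, 18, 15 and 11) and 2 NCM reads, was 27.3 times as high, and exact 95% limits for counting error alone were 7.22 and 230. Sema6d had 30 reads over LLC_CM (13, 5, 1 and 11) and 0 over NCM, at least 9.24-fold higher against a floor of 3 counts over the group. Neither passed the filter on low counts, so neither was tested. Sema4a was at 0.179 CPM in LLC_CM and 0.177 CPM in NCM, Sema4f had 1 read in all, and Sema5b had none.

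Of the most abundant Slit and netrin, Slit2 and Ntn1, neither passed the threshold. Slit3, the Slit described in bone, had 0 counts in all 8 libraries, which allowed at most 0.0840 to 0.111 CPM per library. Slit2, which made up 97.5% of Slit RPKM in LLC_CM and 99.5% in NCM, was at 82.6, 80.6, 68.5 and 65.1 CPM in LLC_CM and at 93.9, 102, 60.5 and 85.3 CPM in NCM. Slit2 was not called (log2 -0.21 ± 0.14, edgeR, adjusted p = 0.29), NCM replicate 3 was the lowest of all 8 libraries, and without it Slit2 was called lower (log2 -0.35 ± 0.09, edgeR, adjusted p = 0.0062). Slit1, mainly a neuronal Slit, was at 1.13, 0.370, 0.616 and 0.837 CPM in LLC_CM and at 0.136 to 0.213 CPM in NCM, with 95 reads against 20. The fitted rise of Slit1 was 4.29-fold (log2 2.10 ± 0.41), and its call was lost with the even-numbered libraries alone. Slit1 reached the filter's 0.330 CPM in 4 LLC_CM and 0 NCM libraries. It was thus tested only through LLC_CM, where it is high.

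Ntn1, netrin 1, had a mean of 10.4 RPKM in LLC_CM, the next after Sema3a there, and of 9.85 RPKM in NCM, where Sema3b was also above it. It stood at 59.8, 60.3, 69.7 and 71.2 CPM in LLC_CM and at 55.9, 65.3, 68.5 and 57.8 CPM in NCM. The groups overlapped, with a log2 fold change of 0.08 ± 0.08 (edgeR, adjusted p = 0.49). Ntn3 rose by 0.49 ± 0.18 from 2.85 CPM to 3.99 CPM (edgeR, adjusted p = 0.040). That call was lost without LLC_CM replicate 3 (0.13) or 4 (0.11) and without NCM replicate 1 (0.13), 2 (0.065) or 4 (0.092). Ntn5 had a log2 fold change of -1.005 ± 0.44 at under 1 CPM and was not called (edgeR, adjusted p = 0.087). It reached the filter's 0.330 CPM in 4 NCM libraries and 1 LLC_CM library, so it was tested only through NCM, where it is higher. Of its exonic length, 23.4% overlapped Sec1 on the other strand, whose reads cannot be told apart without strand. Ntn4 had 31 reads over LLC_CM and 6 over NCM and was not tested.

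**Figure D2:**
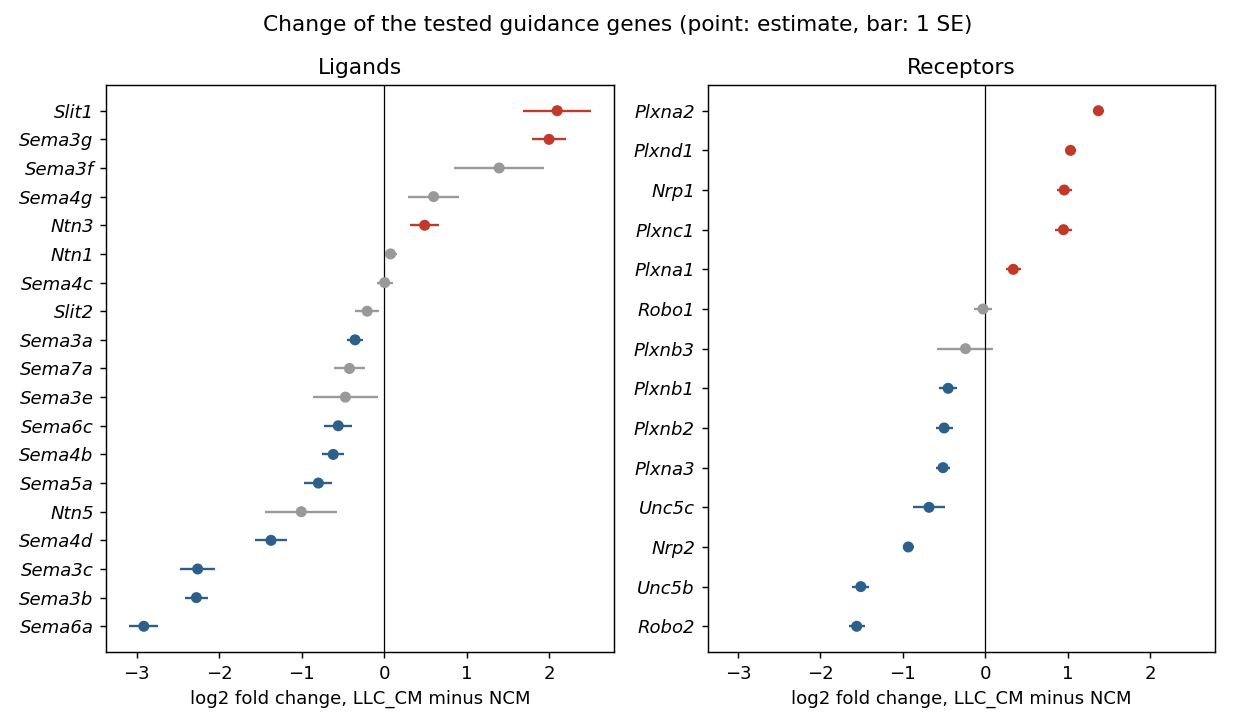
Log2 fold change (LLC_CM minus NCM, edgeR) of the 19 tested ligands and 14 tested receptors, with 1 SE as a bar, red for called higher, blue for called lower and grey for not called. Ligands reach from -2.91 for Sema6a to 2.10 for Slit1, which was tested only through LLC_CM. Receptors reach from -1.56 for Robo2 to 1.37 for Plxna2.

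Receptors changed in both directions: Plxna2 and Plxnd1 rose by more than 2-fold and Nrp1 and Plxnc1 by nearly as much, while Robo2 and Unc5b fell by more than 2-fold and Nrp2 by nearly as much. Of the 19 receptors 14 passed the filter, 5 rose, 7 fell and 2 did not pass the threshold. Of the 13 receptors with a mean of at least 1 CPM, 12 were called, and of the 11 with at least 10 CPM all 11 were, beside 38.8% and 42.2% of all genes at those levels. The median log2 fold change of tested receptors was -0.35, with members in both directions, and -0.56 without LLC_CM replicate 3. Groups did not overlap for 12 tested receptors and 12 tested ligands, beside 36.3% of all genes tested. Those ligands include Slit1, Sema3f and Ntn5, which passed the filter only through the group where each was higher.

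**Figure D3:**
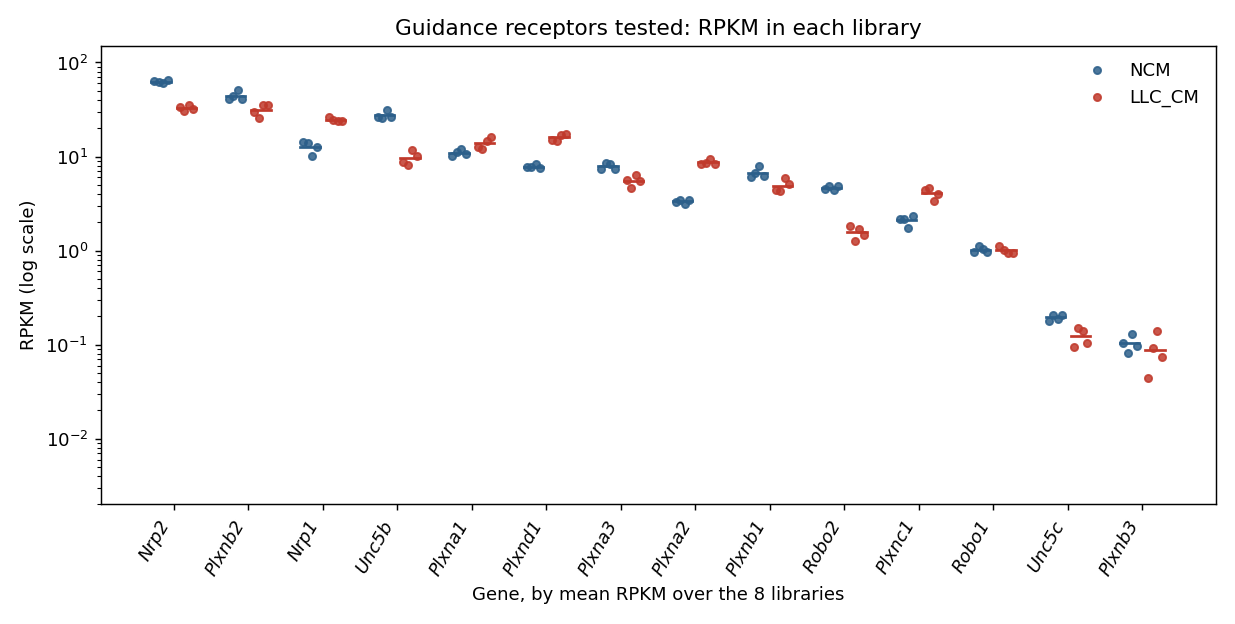
RPKM (log axis) of the 14 tested receptors, with a point for each library and a line for each group mean, NCM in blue and LLC_CM in red. Nrp2 and Plxnb2 lead in both groups, and the points of the groups are apart for every receptor except Robo1 and Plxnb3.

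Neuropilins, the ligand-binding co-receptors of class 3 semaphorins and of vascular endothelial growth factor, moved in opposite directions. Nrp1 (chromosome 8, 128359073 to 128505462) was at 157, 145, 141 and 142 CPM in LLC_CM and at 85.1, 82.3, 59.8 and 73.7 CPM in NCM. Nrp2 (chromosome 1, 62703285 to 62818695) was at 396, 365, 416 and 378 CPM in LLC_CM and at 752, 737, 717 and 769 CPM in NCM. Neither gene's groups overlapped. Nrp1 rose 1.94-fold (log2 0.96 ± 0.09, edgeR, adjusted p = 1.1e-06) and Nrp2 was 1.91-fold lower (log2 -0.93 ± 0.06, edgeR, adjusted p = 2.3e-08).

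Per kilobase, Nrp2 remained the more abundant neuropilin in both groups, at 32.9 RPKM against 24.8 RPKM for Nrp1 in LLC_CM and 62.8 RPKM against 12.7 RPKM in NCM. The share of Nrp1 in neuropilin RPKM was 40.5% to 44.3% in the LLC_CM libraries and 14.3% to 18.5% in the NCM libraries. With the longer exon length that the GENCODE M21 annotation gives Nrp1 (9785 bases against 5907 deposited), the means were 31.3% and 10.9% in place of 43.0% and 16.8%.

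**Figure D4:**
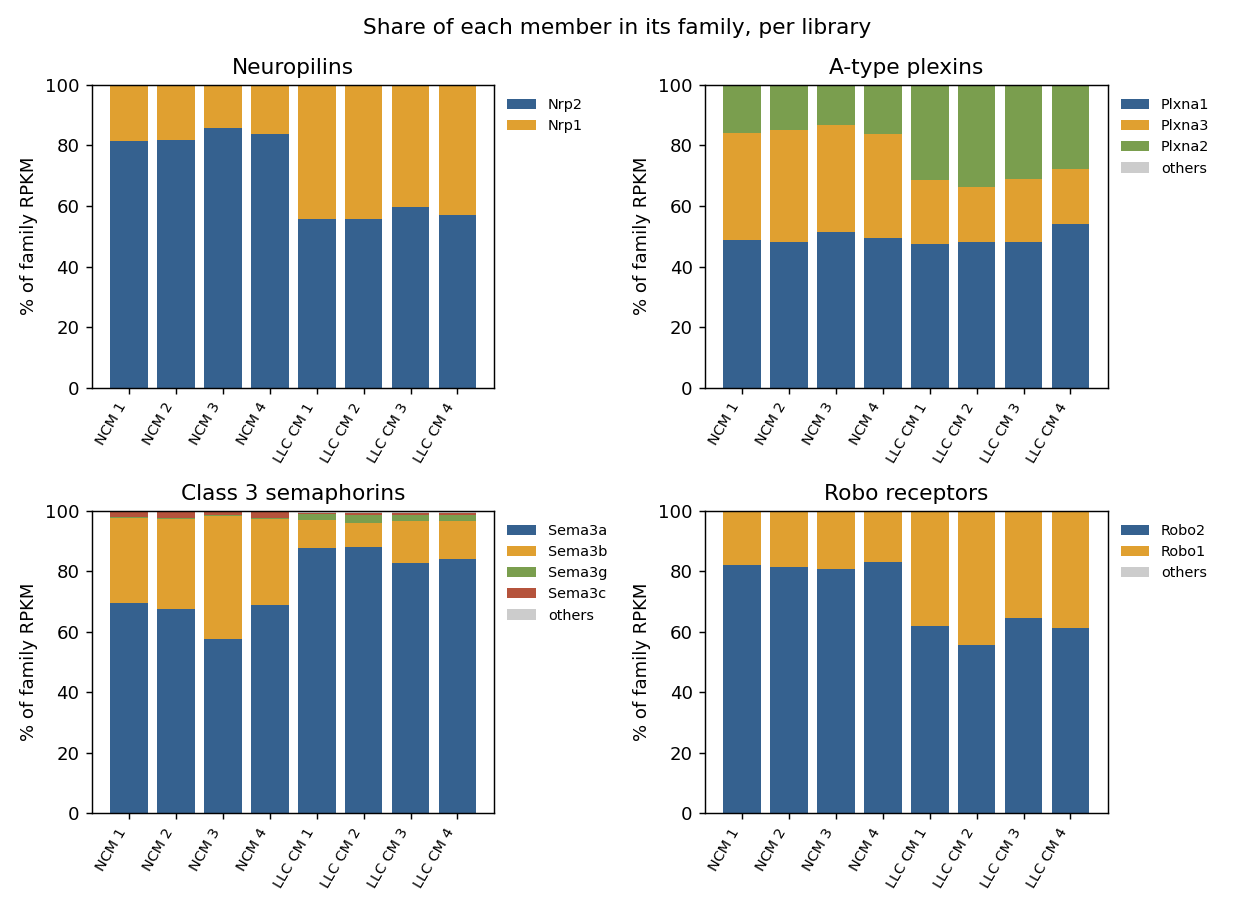
Stacked bars of the percent of family RPKM held by each member, per library, for neuropilins, A-type plexins, class 3 semaphorins and Robo receptors. In LLC_CM the shares of Nrp1, Plxna2, Sema3a and Robo1 are larger than in NCM in every library.

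A-type plexins, the signalling partners of neuropilins, also changed their mix. Plxna2, a receptor for Sema3 ligands and Sema6a, was at 142, 147, 163 and 144 CPM in LLC_CM and at 56.8, 59.7, 53.9 and 59.4 CPM in NCM. The groups were far apart, and Plxna2 (chromosome 1, 194618218 to 194816869) rose 2.59-fold (log2 1.37 ± 0.06, edgeR, adjusted p = 1.9e-10). Plxna1, which pairs with Nrp1 for Sema3a, was at 113, 109.4, 132 and 147 CPM in LLC_CM and at 91.8, 101, 108.9 and 95.4 CPM in NCM. The lowest LLC_CM and the highest NCM library nearly met. Plxna1 rose by 0.34 ± 0.09 on the log2 scale (edgeR, adjusted p = 0.0073), a call lost in the odd-numbered libraries by themselves (0.10) and in the even-numbered by themselves (0.058). An antisense gene model overlapped 10.7% of the exonic length of Plxna1.

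Plxna3, which pairs mainly with Nrp2, fell by 0.51 ± 0.09 from 62.3 CPM to 43.6 CPM (edgeR, adjusted p = 3.5e-04). Its share of A-type plexin RPKM was 19.7% ± 1.63 in LLC_CM and 35.5% ± 1.05 in NCM, while that of Plxna2 was 31.0% ± 2.50 and 15.1% ± 1.25 and that of Plxna1 was 49.4% ± 3.08 and 49.4% ± 1.46 (SD, n = 4). Plxna4 had 2 reads in all.

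Plxnd1, the Sema3e receptor of endothelial cells, and Plxnc1, the Sema7a receptor, both rose. Plxnd1 was at 108, 106, 122 and 124 CPM in LLC_CM and at 55.1, 55.8, 59.7 and 53.8 CPM in NCM. The groups did not overlap, and Plxnd1 (chromosome 6, 115954811 to 115995005) rose 2.05-fold (log2 1.03 ± 0.07, edgeR, adjusted p = 1.1e-08). Plxnc1 rose 1.93-fold, from 16.5 ± 1.88 CPM to 31.8 ± 4.22 CPM (SD, n = 4, edgeR, adjusted p = 4.9e-06).

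Of the B-type plexins, receptors of class 4 semaphorins, Plxnb1 and Plxnb2 fell. Plxnb2, the second most abundant receptor per kilobase, was at 210, 182, 250 and 251 CPM in LLC_CM and at 291, 315, 365 and 292 CPM in NCM. The groups did not overlap, and its log2 fold change was -0.50 ± 0.10 (edgeR, adjusted p = 0.0015). Plxnb1, through which Sema4d acts on osteoblasts, was at 42.3, 40.8, 56.4 and 48.2 CPM in LLC_CM and at 58.3, 64.1, 75.6 and 59.0 CPM in NCM. The groups were apart by a small margin, with a log2 fold change of -0.45 ± 0.11 (edgeR, adjusted p = 0.0038), and the call was lost with the odd-numbered libraries alone (0.087). Plxnb3 was under 1 CPM and not called (log2 -0.24 ± 0.34, adjusted p = 0.63). Plxnb2 made up 86.2% of B-type plexin RPKM in LLC_CM and 86.7% in NCM.

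Of the Slit receptors, Robo2 fell and Robo1 did not pass the threshold. Robo2 was at 30.1, 20.9, 28.2 and 24.4 CPM in LLC_CM and at 74.7, 79.5, 72.5 and 79.4 CPM in NCM. Every LLC_CM library was below every NCM library, and Robo2 (chromosome 16, 73892306 to 74411825) was 2.95-fold lower (log2 -1.56 ± 0.09, edgeR, adjusted p = 6.9e-09). Robo1, which is also on chromosome 16, was at 8.53, 7.66, 7.11 and 7.11 CPM in LLC_CM and at 7.37, 8.40, 7.84 and 7.38 CPM in NCM. Those ranges overlapped, with a log2 fold change of -0.03 ± 0.11 (edgeR, adjusted p = 0.88). Robo3 had 3 reads, all in NCM, and Robo4, the endothelial Robo, had 0 counts in all 8 libraries.

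Unc5b, a netrin receptor that also acts as a dependence receptor, was the only Unc5 gene above 10 CPM. It was at 51.0, 47.2, 68.0 and 58.8 CPM in LLC_CM and at 154, 149, 184 and 154 CPM in NCM. The groups did not overlap, and Unc5b (chromosome 10, 60762610 to 60831581) was 2.85-fold lower (log2 -1.51 ± 0.10, edgeR, adjusted p = 8.4e-08). Unc5c fell by 0.68 ± 0.20 from 2.38 CPM to 1.49 CPM (edgeR, adjusted p = 0.013). Its call was lost in the odd-numbered (0.17) and in the even-numbered (0.12) subset of libraries. Unc5a and Unc5d had 0 counts in all 8 libraries.

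Summed per family, RPKM of class 3 semaphorins was 32.1 ± 2.73 in LLC_CM and 53.2 ± 2.14 in NCM, a sum made mostly by Sema3a and Sema3b. Sema3a held 85.6% ± 2.66 of it in LLC_CM and 65.9% ± 5.61 in NCM, and Sema3b 10.9% ± 2.76 and 31.8% ± 5.97. With the longer M21 length of Sema3a, its shares were 73.6% and 47.6%. Robo RPKM was 2.58 ± 0.29 in LLC_CM and 5.66 ± 0.23 in NCM, and the share of Robo1 was 39.3% ± 3.76 and 18.1% ± 1.02, or 23.4% and 9.43% with M21 lengths (SD, n = 4 throughout). The Robo1 share was thus larger in LLC_CM while the level of Robo1 itself was not called. Unc5 RPKM was 9.74 ± 1.57 in LLC_CM and 27.6 ± 2.72 in NCM, and netrin RPKM 11.4 ± 1.17 and 10.7 ± 1.06. These sums and shares are descriptions and were not tested.

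The promoters of the 4 receptors that were called at 2-fold or more are shown because, among the receptors, these had the largest fold changes, 2 in each direction. Over all genes tested 8.61% were called at 2-fold or more, in either direction. Each sequence is the RefSeq window of 250 bases before and 50 bases from the start site on, on the gene's strand in GRCm38.p6, and capitals mark the GC box, GGGCGG or its reverse complement CCGCCC, a site of Sp and Klf factors. Where a gene had several windows, as Robo2 with 3, the window nearest the start of the deposited gene was used. The Plxna2 start site lay 1611 bases from the start of the deposited gene. The windows are chr10:60831532-60831831 on the minus strand for Unc5b, chr16:74411776-74412075 on the minus strand for Robo2, chr1:194619579-194619878 on the plus strand for Plxna2 and chr6:115994956-115995255 on the minus strand for Plxnd1.
Unc5b: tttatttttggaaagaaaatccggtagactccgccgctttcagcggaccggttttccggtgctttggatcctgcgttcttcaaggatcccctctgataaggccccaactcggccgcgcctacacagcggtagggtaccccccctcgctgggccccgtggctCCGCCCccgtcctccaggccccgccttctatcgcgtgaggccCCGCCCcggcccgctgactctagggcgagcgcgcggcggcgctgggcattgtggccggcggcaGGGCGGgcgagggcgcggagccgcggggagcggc
Robo2: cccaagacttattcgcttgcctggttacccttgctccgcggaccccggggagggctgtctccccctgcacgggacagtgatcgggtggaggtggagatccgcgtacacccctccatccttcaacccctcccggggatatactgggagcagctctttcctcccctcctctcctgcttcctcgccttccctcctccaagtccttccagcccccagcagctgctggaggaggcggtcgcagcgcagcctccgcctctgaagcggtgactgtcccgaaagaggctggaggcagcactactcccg
Plxna2: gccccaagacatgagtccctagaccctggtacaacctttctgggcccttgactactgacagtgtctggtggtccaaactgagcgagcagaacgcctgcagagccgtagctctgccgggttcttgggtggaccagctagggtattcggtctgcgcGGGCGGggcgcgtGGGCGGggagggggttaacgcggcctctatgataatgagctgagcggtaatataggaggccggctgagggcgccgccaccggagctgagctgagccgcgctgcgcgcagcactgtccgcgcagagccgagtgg
Plxnd1: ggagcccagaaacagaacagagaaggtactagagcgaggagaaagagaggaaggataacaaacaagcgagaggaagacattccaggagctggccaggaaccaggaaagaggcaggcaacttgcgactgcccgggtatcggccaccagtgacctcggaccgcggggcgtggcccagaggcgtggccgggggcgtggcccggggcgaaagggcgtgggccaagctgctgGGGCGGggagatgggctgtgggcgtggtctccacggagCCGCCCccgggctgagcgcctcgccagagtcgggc
The GC box occurred 3 times in the Unc5b window, 2 times each in those of Plxna2 and Plxnd1 and not in that of Robo2, and in 35.7% of 32851 RefSeq promoter windows of that length. Also searched, on both strands, were the Runx motif TGTGGT, the AP-1 motif TGANTCA, the TCF/LEF motif CTTTGAT, the STAT motif TTCCNGGAA and the NF-kB motif, which ends in the TTCC that opens the STAT motif. None of these occurred in the 4 windows, and 16.8%, 7.81%, 3.73%, 1.15% and 1.47% of all windows held them. Of 38 guidance genes matched to a window, 6 were called higher and 13 lower. No window was found for Sema3b and Sema6a, which were called lower, or for Slit1 and Plxna1, which were called higher. Sema3f, Ntn1, Plxna4 and Unc5d also had none. Genes with several windows were scored on the window nearest the start of the deposited gene. The GC box was in 6 of the 6 and 9 of the 13. It was also in the windows of Sema3e, Sema4c, Sema4g, Sema7a and Slit2, which were not called. Ntn5, Plxnb3 and Robo1, also not called, lacked it. The Runx motif was in none of the 6 and in 3 of the 13, those of Sema3a, Plxna3 and Unc5c. Of the other motifs, TCF/LEF occurred in the Nrp2 window alone among the 19 called genes with a window, and AP-1, NF-kB and STAT in none. These are matches of letters and were not tested.

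Genes that work with the guidance receptors were described from 3 lists with 68 members, kept apart from the ligands and receptors above. Of 50 tested, 22 fell and 11 rose, beside 18.1% lower and 18.8% higher over all genes tested, with a median log2 fold change of -0.15. Of 25 tested semaphorin and plexin co-receptors and signal carriers, 13 fell and 4 rose, where 36.9% of all genes tested were called. Rras2, a Ras-family GTPase related to Rras, on which plexins act, was at 22.5 to 27.0 CPM in LLC_CM and at 72.9 to 82.6 CPM in NCM (log2 -1.69 ± 0.07, edgeR, adjusted p = 1.1e-10). Farp2, a Rac activator bound to A-type plexins, and Dpysl2, the collapsin response mediator protein of Sema3a signalling, had log2 fold changes of -1.13 ± 0.06 and -1.19 ± 0.07 (edgeR, adjusted p = 1.2e-09 and 8.1e-09).

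Of 18 tested Slit and Robo partners, 8 fell and 3 rose, beside the same 36.9% called over all genes. Sdc1, a heparan sulfate proteoglycan of the class that carries Slits, rose by 0.67 ± 0.06 on the log2 scale (edgeR, adjusted p = 4.4e-07). The Robo-bound GTPase-activating protein Srgap2 had a log2 fold change of -0.64 ± 0.06 (edgeR, adjusted p = 7.1e-07). Srgap1 had 3 LLC_CM reads and 116 NCM reads, and the LLC_CM level was 0.0239 of the NCM level, with exact 95% limits for counting error of 0.00486 and 0.0716. All LLC_CM libraries of Srgap1 were under the filter's 0.330 CPM and all NCM libraries were above it, so the gene was tested only through NCM and its presence there required a difference.

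Of 15 listed netrin and Unc5 partners, 8 were not tested, 4 rose and 1 fell, beside 18.8% higher and 18.1% lower over all genes tested. The gene that fell was Neo1, neogenin, at 92.3 ± 6.60 CPM in LLC_CM and 104 ± 3.33 CPM in NCM (log2 -0.18 ± 0.06, edgeR, adjusted p = 0.034), and its call was lost without LLC_CM replicate 2 or 3 or NCM replicate 1, 2 or 3 (adjusted p = 0.061 to 0.079). Draxin, a secreted netrin receptor antagonist, was at 3.70, 4.55, 3.11 and 7.44 CPM in LLC_CM and at 0.0682, 0.602, 0.212 and 0.158 CPM in NCM. The groups did not overlap, and the fitted log2 fold change was 4.18 ± 0.44. Draxin reached the filter's 0.330 CPM in 1 NCM library and in all 4 LLC_CM libraries, so it was tested only through LLC_CM, where it is high. Rgma, a neogenin ligand, and Flrt2, an adhesion ligand of Unc5 receptors, rose by 0.74 ± 0.14 and 0.48 ± 0.09 (edgeR, adjusted p = 4.8e-04 and 5.4e-04). Dcc, the classical netrin receptor, had 0 counts in all 8 libraries.

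**Figure D5:**
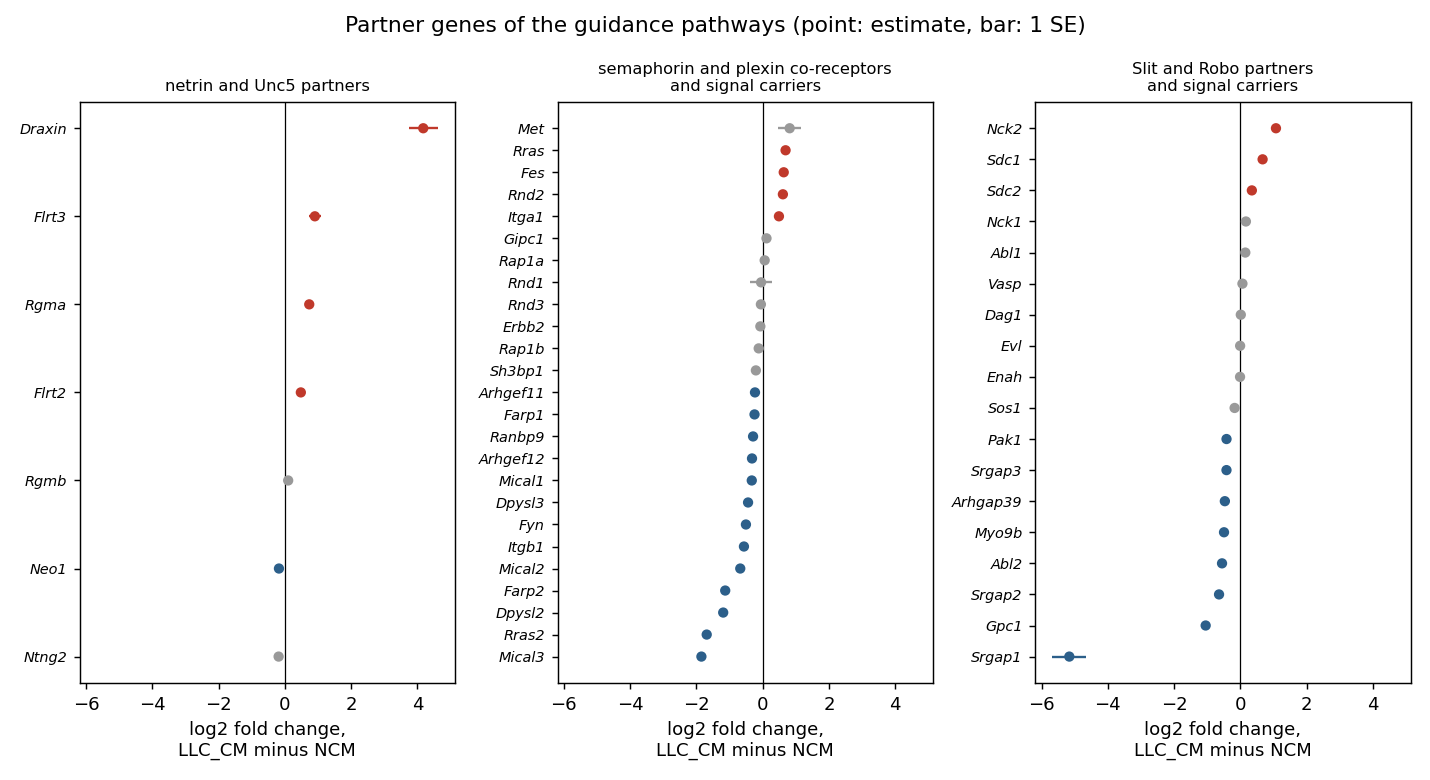
Log2 fold change (LLC_CM minus NCM, edgeR) of the 50 tested partner genes in 3 lists, with 1 SE as a bar, red for called higher, blue for called lower and grey for not called. Mical3, Rras2, Dpysl2 and Farp2 lie lowest among semaphorin and plexin partners, and Draxin and Srgap1 are the extremes of the other lists.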

How the data were processed

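Poly(A)-selected libraries of 8 MC3T3 samples were made from 200 ng of RNA with 12 PCR cycles, per the labels' protocols. The kit does not mark strand. The authors deposited raw read counts per gene with gene coordinates and lengths, and CASAVA, STAR, featureCounts and mm10 are named, per the submitters' processing notes, whose versions are not given in the sources used here. Columns were matched to samples by title. Genes that passed filterByExpr (14991) were tested with edgeR 4.0.16 (limma 3.58.1, R 4.3.3), TMM factors, robust quasi-likelihood F test, no covariate, and p-values adjusted by Benjamini and Hochberg across that whole set, at 0.05. The SE of a log2 fold change is its size over the root of F. RPKM divides TMM-scaled CPM by the deposited gene length. GENCODE M21, in which 45 of 46 guidance genes were found by identifier and 25 had the deposited start and end, gave exon overlaps and other lengths. The fit was tested on simulated data.

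The guidance genes, partner lists, marker lists and alternatives were chosen with earlier results of these data known. Values per library are given for genes called at 2-fold or more with a mean of at least 1 CPM, for the 3 ligands and 3 receptors highest by RPKM, and for 12 genes with roles in bone. Up to 3 partner genes per list with the smallest adjusted p are named. Values beyond that rule for Slit1, Slit2, Sema3f, Sema6b, Sema6d, Neo1, Dcc, Mical3, Tubb3 and Ctsk were chosen after their values were seen. So were those for Muc1, Fcer1g, Tnnt3, Col1a1, Ibsp and Runx2. Adgre1 was not matched by symbol. A result on a marker gene is not reported here. Alternatives were other scaling in edgeR (size factors as in DESeq2, upper quartile, library size), 2 other low-count filters, the tools DESeq2 1.42.0 and limma-voom, a block for the replicate number, odd against even numbers as a covariate or as subsets, leaving out each library, and a threshold of 0.01. Added after seeing the data was the M21 gene length.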

Additional observations from a re-analysis of the deposited data

Results flagged for a closer look

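In 3 of 66 sets of 4 libraries (33 tested guidance genes in 2 groups), a library stood apart from the others of its group by Dixon's test at 95%, which chance gives in about 1 of 20 sets. For Sema4b, LLC_CM replicate 4 was at 9.24 CPM and the other LLC_CM libraries at 7.34 to 7.51 CPM. In NCM, replicate 3 was at 15.4 CPM for Sema4b, with the others at 10.8 to 11.2 CPM. For Unc5b, NCM replicate 3 was at 184 CPM and the others at 149 to 154 CPM. Without NCM replicate 3 the log2 fold changes were -0.49 for Sema4b and -1.44 for Unc5b, and both stayed called by edgeR (adjusted p = 0.0042 and 1.7e-07). NCM replicate 3 had the lowest NCM value for 10 and the highest for 16 of the 33 tested guidance genes.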

How the results depend on the processing

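Over 20 alternatives, the call of 22 of 33 tested guidance genes was the same wherever the gene was tested, and no direction reversed among the called guidance and partner genes. The 11 others were Sema6c, Unc5c, Sema3a, Slit2, Plxna1, Sema4b, Sema3f, Plxnb1, Sema5a, Ntn3 and Slit1, with Ntn3 losing its call in 8 of 20 alternatives. Without the low-count filter, 6 ligands were called higher in place of 3 and the median log2 fold change of ligands was 0.0012 in place of -0.42, over more ligands of low count. With the odd-numbered libraries alone, 3034 genes were called over all genes and the ligand median was -0.15. With the even-numbered libraries alone, 3145 genes, 1 ligand higher and 5 ligands lower were called, from 2 libraries a group. Leaving out each library in turn gave ligand medians of -0.43 to -0.28 and receptor medians of -0.56 to -0.25, with 2 to 4 ligands higher, 7 or 8 ligands lower, 5 receptors higher and 7 lower each time. Deviations of same-numbered samples from their group means had correlations of -0.04 to 0.20, which cannot show whether the numbers pair the samples. With the replicate number as a block, 5473 genes, 3 ligands higher, 8 lower, 5 receptors higher and 7 lower were called. Depth limits the genes under 1 CPM, 19 of the 46.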
